A study of Homo sapiens with 2 samples.

Results

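The 10 peaks of the transcription factor TCF4 that the authors assigned to FOXP1, a forkhead transcription factor gene on chromosome 3, are described here. They were chosen by gene name and are 10 of the 661 distinct peaks in the authors' table. Chromatin immunoprecipitation and sequencing (ChIP-seq) was done in TMD8, an established lymphoma line whose labels name the activated B cell-like (ABC) form of diffuse large B cell lymphoma and no copy number gain of TCF4. The cells carried a TCF4 construct under tetracycline control and were given 60 ng/ml doxycycline for 24 hours, so TCF4 was overexpressed in both libraries. The 2 libraries were 1 TCF4 immunoprecipitate (antibody against TCF4) and 1 input of whole cell extract (no antibody). No uninduced cells were among the samples used here, and the labels do not say whether the line was a single clone. There was 1 library per kind, so values carry no replicate error and no condition could be tested.

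FOXP1 takes part in early B cell development and is kept low in normal germinal centre B cells. It is known for high expression in ABC-type lymphoma, where shorter protein forms made from internal starts are also found. The gene is transcribed from several alternative promoters spread over a long first part of the gene. TCF4 is an E protein, a basic helix-loop-helix factor that binds E-boxes, short sites of the form CANNTG. FOXP1 was marked Up in the TCF4 signature that limits the table, and neither labels nor headers say how that signature was made.

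Distances deposited with the peaks placed the starts of 5 FOXP1 transcripts, which no other gene of the table exceeded and 1 other gene equalled. FOXP1 lies on the minus strand, so transcription runs toward lower coordinates. In hg19, the build of the peaks, the implied starts on chromosome 3 were 71633140 for NM_001012505, 71592707 for NM_001244816, 71353910 for NM_001244812, 71294316 for NM_001244814 and 71114073 for NM_001244813. Of these transcripts 4 shared an implied end at 71003863. NM_001012505 ended early, at 71247033. The starts therefore spread over 519067 bp, and the shortest of these transcripts spanned 110.2 kb while the longest spanned 588.8 kb.

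RefSeq gives 6 promoter windows for FOXP1 on GRCh38.p14, and 5 of them matched the implied starts by spacing alone. Spacing was counted from the start of NM_001244816, set against the window that let the most starts match within 300 bp. Its own difference is 0 by construction, and the number matched is no independent check. Spacing differed between the builds by at most 262 bp. The remaining window had no counterpart among the listed transcripts. The 250 bases before the matched RefSeq start are shown for 3 transcripts that frame the peaks. NM_001244814 has the closest peak of all, NM_001244813 is the nearest implied start to 4 peaks, and NM_001244816 holds the most E-boxes. Spacing differed by 262 bp for NM_001012505, more than the window length, and by 89 bp for NM_001244814. The windows of these 2 therefore need not lie before the implied starts. Capitals mark CANNTG, a pattern that reads the same on both strands, and overlapping matches are each counted.
NM_001244814, GRCh38.p14 chr3:71245078-71245327, minus strand: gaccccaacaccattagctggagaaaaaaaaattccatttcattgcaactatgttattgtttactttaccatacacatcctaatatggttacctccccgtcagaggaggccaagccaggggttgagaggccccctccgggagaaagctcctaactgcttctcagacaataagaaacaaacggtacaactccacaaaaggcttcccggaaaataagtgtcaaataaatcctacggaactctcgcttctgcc
NM_001244813, GRCh38.p14 chr3:71064925-71065174, minus strand: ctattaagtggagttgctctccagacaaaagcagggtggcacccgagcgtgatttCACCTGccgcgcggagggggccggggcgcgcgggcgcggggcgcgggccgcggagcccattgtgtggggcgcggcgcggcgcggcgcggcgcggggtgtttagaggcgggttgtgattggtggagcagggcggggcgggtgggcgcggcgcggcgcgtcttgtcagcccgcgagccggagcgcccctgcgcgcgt
NM_001244816, GRCh38.p14 chr3:71543558-71543807, minus strand: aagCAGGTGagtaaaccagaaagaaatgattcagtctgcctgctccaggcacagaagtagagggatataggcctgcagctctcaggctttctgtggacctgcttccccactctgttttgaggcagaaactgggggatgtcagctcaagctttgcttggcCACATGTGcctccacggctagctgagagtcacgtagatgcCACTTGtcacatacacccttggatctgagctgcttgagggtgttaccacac

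The window of NM_001244816 held 4 E-boxes, of which a pair overlap, and that of NM_001244813 held 1. The windows of NM_001244814, NM_001244812 and NM_001012505 held none of these letters. Over all 35116 RefSeq windows of this length, 61.8% held at least 1 CANNTG. The E-box CAGGTG, or CACCTG on the other strand, occurred once each before NM_001244816 and NM_001244813, and in 17.5% of all windows. GC content was 75.6% in the window of NM_001244813 and 74.0% in that of NM_001012505. It was 52.4% for NM_001244816, 45.2% for NM_001244814 and 39.2% for NM_001244812. The median window had 58.0%. A match is a description of letters and not a bound site, and no FOXP1 peak covered any of the 5 implied starts.

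The peaks were numbered 1 to 10 in the direction of transcription. Enrichment is given as the fold, the ratio of ChIP to input reads times the authors' library scaling of 1.31. The interval after each fold is the exact 95% one (Clopper-Pearson), which allows for counting error in these 2 libraries and nothing else. Together the 10 peaks held 519 ChIP and 127 input reads in 4126 bp, a pooled fold of 5.35 (4.40 to 6.55). They spread over 857.1 kb, with 7 inside the gene and 3 beyond its end.

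Peaks 1, 2 and 3 formed the densest stretch, 25 kb long, in the part of the gene between the starts of NM_001244816 and NM_001244812. Peak 1 ran from 71422026 to 71422451 and had 38 ChIP reads over 8 input reads, which is 6.22-fold (2.86 to 15.4). Peak 2 ran from 71405301 to 71405776 with 78 reads over 14, or 7.30-fold (4.10 to 13.96). Peak 3, from 71397451 to 71397976, had 77 reads over 12 and the highest fold at the gene, 8.40 (4.54 to 16.97). Their ChIP reads made up 37.2% of those at FOXP1 (exact 95% interval 33.0 to 41.5). These peaks were 425, 475 and 525 bp of the 4126 bp in all 10, a share of length inside that interval. Peaks 2 and 3 were 7.33 kb apart, the closest pair, and peak 1 was 16.3 kb from peak 2. The authors measured all 3 from the start of NM_001012505, 210.9 to 235.4 kb away. The start of NM_001244812 was nearer, with peak 3 lying 43.8 kb upstream of it, peak 2 at 51.6 kb and peak 1 at 68.3 kb.

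Peak 4, from 71301766 to 71302376, was the widest at 610 bp and held the most reads, 106 from the ChIP and 24 from the input. Its fold of 5.78 (3.69 to 9.42) had the narrowest interval of the 10 in relative terms. This peak was listed at 290.7 kb from the start of NM_001244816. It lay 7.76 kb upstream of the start of NM_001244814, the shortest distance between any FOXP1 peak and any of the 5 starts. Its −log10 local p-value of 6.24 in the authors' deposited table was the highest of the 10.

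**Figure D1:**
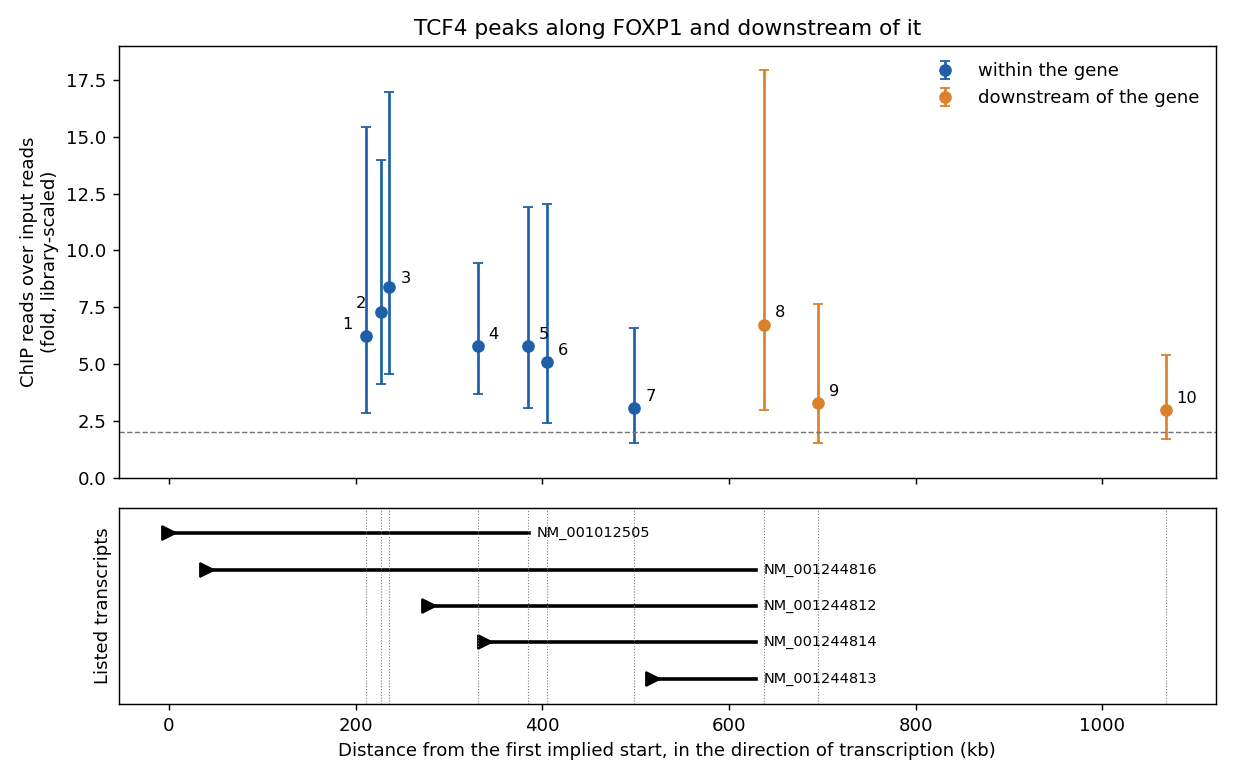
Fold of TCF4 ChIP over input (y axis, library-scaled) at the 10 numbered FOXP1 peaks by distance from the first implied start in kb (x axis), with exact 95% intervals as bars and a dashed line at a fold of 2. The lower panel shows the 5 listed transcripts as lines from start (triangle) to end, with dotted lines at the peaks. Peaks 1 to 3 lie close together, no peak lies in the first 40.4 kb or in the last 110.2 kb of the gene, and peaks 7, 9 and 10 have intervals that reach below 2.

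Peaks 5, 6 and 7 lay between the starts of NM_001244814 and NM_001244813. Peak 5, from 71248376 to 71248851, had 53 ChIP reads over 12 input reads, or 5.78-fold (3.05 to 11.9). It lay 1.58 kb before the implied end of the short transcript NM_001012505 and 45.7 kb downstream of the start of NM_001244814, while its listed distance, from NM_001244816, was 344.1 kb. Peak 6, from 71228326 to 71228726, had 35 reads over 9, or 5.09-fold (2.40 to 12.0). It lay 18.5 kb beyond the end of NM_001012505 and 65.8 kb downstream of the start of NM_001244814. Peak 7, from 71134429 to 71134677, had 28 reads over 12, and its fold of 3.06 (1.505 to 6.60) was the lowest inside the gene. It lay 20.5 kb upstream of the start of NM_001244813, the second shortest such distance. ChIP reads were thus fewer at each successive peak from 4 to 7, but the fold intervals of these 4 peaks overlapped. Widths fell in the same order, 610, 475, 400 and 248 bp. By normalized ChIP density, 3.99, 2.56, 2.01 and 2.59, the order was not kept, with peak 7 above peaks 5 and 6.

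Peaks 8, 9 and 10 lay downstream of FOXP1. Peak 8, from 70995125 to 70995526, was 8.54 kb past the implied gene end. It had 36 ChIP reads over 7 input reads, the fewest input reads of the 10, and was 6.73-fold enriched (2.96 to 17.9). Peak 9, from 70937951 to 70938186, lay 65.8 kb past the end, and had 25 reads over 10, or 3.27-fold (1.52 to 7.64). Its apex was 8 bp from the edge of the peak, whereas at the other 9 peaks it was at least 99 bp from an edge. Its −log10 local p-value in the authors' deposited table was 2.03, equal to the minimum over all 661 peaks. Peak 10, from 70565314 to 70565646, lay 438.4 kb past the end, with 43 reads over 19, or 2.96-fold (1.69 to 5.38). A gap of 372.3 kb separated it from peak 9. In RefSeq the next protein-coding gene on this side is MDFIC2 and on the other side EIF4E3, and neither was named by the table. The name FOXP1 is thus the authors' assignment over a long distance, and no measurement here ties peak 10 to the gene.

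**Figure D2:**
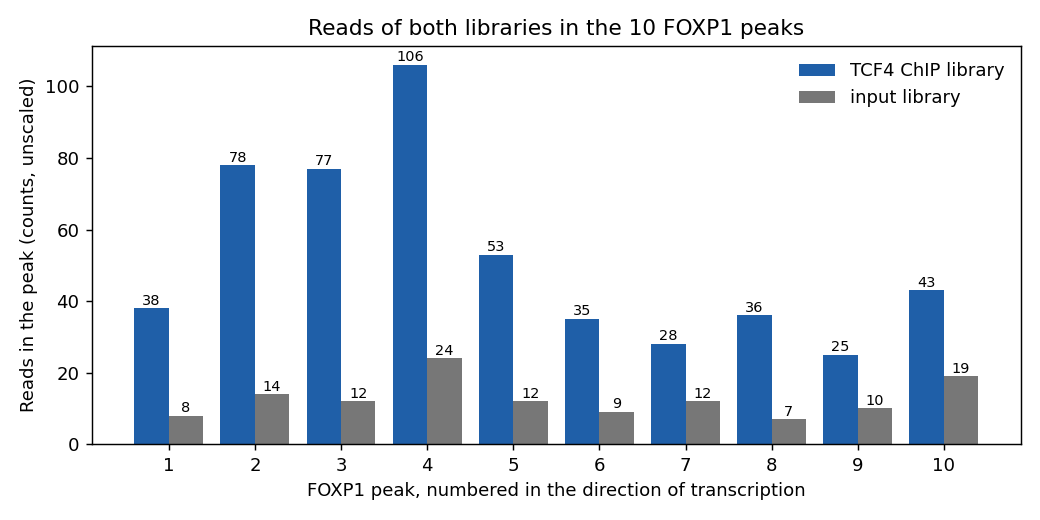
Reads counted in each numbered FOXP1 peak (x axis) in the TCF4 ChIP library (blue) and the input library (grey), unscaled, with 1 library of each kind. ChIP reads run from 25 to 106 and are highest in peak 4, and input reads run from 7 to 24.

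The stretches between starts held unequal numbers of peaks. The first 40.4 kb, from the start of NM_001012505 to that of NM_001244816, held 0. The next 238.8 kb, to the start of NM_001244812, held 3 (1.26 per 100 kb), and the following 59.6 kb held 1 (1.68 per 100 kb). The 180.2 kb between the starts of NM_001244814 and NM_001244813 held 3 (1.66 per 100 kb), and the last 110.2 kb held 0. The table keeps only called peaks, so a stretch without one is not shown to be free of TCF4. Neighbouring peaks had a median gap of 56.9 kb, from 7.33 to 372.3 kb. Joining peaks with gaps of up to 10000 bp left 9 clusters, since this joined peaks 2 and 3.

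Distances listed for FOXP1 were long, and each was measured to 1 transcript that was often not the nearest. The listed distance had a median of 219.2 kb at FOXP1 and 39.3 kb over the 654 peaks of the table that have one, and 2 peaks of the table were listed farther from a start than peak 10. For all 7 peaks inside the gene another implied start was nearer than the listed one. Measured from the nearest of the 5 implied starts, those 7 lay 7.76 to 68.3 kb away, with a median of 45.7 kb in place of 227.6 kb. At the 49 other genes with at least 2 listed transcripts and a known strand, another implied start was nearer by more than 1000 bp for 40 of 210 peaks (19.05%). NEDD4L had 8 such peaks of 10, and the difference between genes was not tested. No gene had more listed transcripts than the 5 of FOXP1. The number and spread of starts, which bear on how often another is nearer, were not matched. No FOXP1 peak was in the authors' promoter class, which reached 2000 bp from a start and held 5.45% of all peaks. None lay within 2000 bp of any of the 5 implied starts either. The start in the unmatched RefSeq window was not placed on hg19. It is not covered by this count or by the nearest distances, which could be shorter for peaks 5, 6 and 7.

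**Figure D3:**
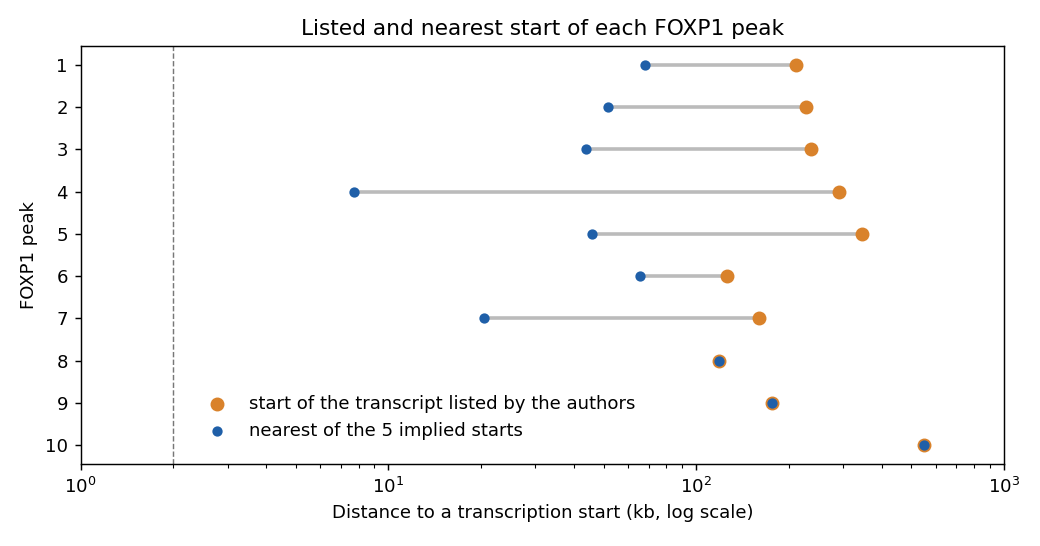
Distance in kb (x axis, log scale) from each FOXP1 peak (y axis) to the start of the transcript the authors listed (orange) and to the nearest of the 5 implied starts (blue), with a dashed line at the 2 kb limit of the promoter class. Peaks 1 to 7 have a nearer start than the listed one, and no point reaches the dashed line.

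All 10 folds had an interval above 1, as did 99.8% of all peaks, which were called from these same libraries. The interval lay above 2 at 7 of the 10, against 85.5% of all peaks. The exceptions were peaks 7, 9 and 10. The folds ran from peak 3 (8.40) down through peaks 2, 8, 1, 4, 5, 6, 9, 7 and 10 (2.96). All 45 pairs of FOXP1 peaks had overlapping intervals, including every neighbouring pair in this order. Overlap does not show that the peaks were equally enriched, and differences between single peaks were not tested. By ChIP reads per length the order began with peak 4, at a normalized density of 3.99, followed by peaks 2 and 3.

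Width separated the 10 peaks into 2 sets. Peaks 7, 9 and 10 were 248, 235 and 332 bp wide and the other 7 were 400 to 610 bp. A line at 350 bp, chosen after the values were seen, divides them. The 3 narrow peaks had a pooled fold of 3.07 (2.11 to 4.53) and the 7 wider ones 6.44 (5.10 to 8.22). These were also the 3 lowest and the 7 highest folds, so the order of the pooled folds follows from the split. Their intervals are therefore no test of a difference between the sets. ChIP density was alike, with medians of 2.59 and 2.56 in the authors' normalized units. Input density was higher in every narrow peak, at 0.746 to 1.003, than in every wider one, at 0.306 to 0.690. The same values moved with width in the rest of the table. The 91 other peaks up to 350 bp had a median fold of 3.14 and a median input density of 0.908. The 341 other peaks above 350 bp and up to 610 bp had 6.002 and 0.553. Each fold is also the ratio of ChIP density to input density, so at like ChIP density a higher input density gives a lower fold by arithmetic. Input density is in turn proportional to input reads over width, and the median was 12 input reads in both sets. Why the narrow peaks held like input reads in less length was not tested.

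**Figure D4:**
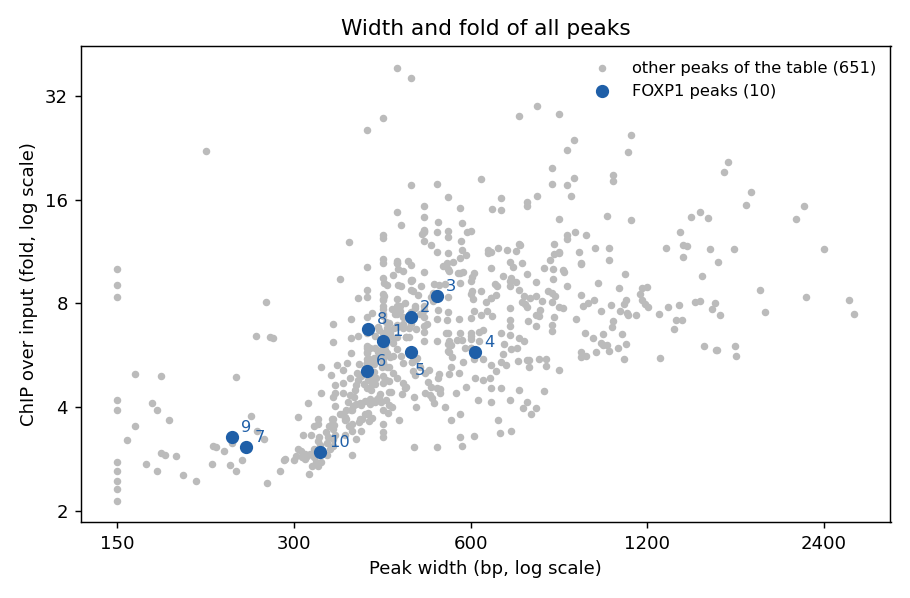
Fold of ChIP over input (y axis, log scale) against peak width in bp (x axis, log scale) for the 10 FOXP1 peaks (blue, numbered) and the 651 other peaks (grey). Peaks 7, 9 and 10 lie among the narrow peaks of low fold and the other 7 among peaks of 400 to 610 bp.

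FOXP1 peaks were small ones for this table. Their median of 40.5 ChIP reads compared with 73 over all peaks, their median input of 12 reads with 17, their median width of 413 bp with 492 bp, and their median fold of 5.78 with 6.36. By the authors' normalized log2 ratio 3 of the 10, peaks 2, 3 and 8, were among the 331 highest, which by construction are 50.1% of peaks, and the best, peak 3, was 193rd. Several were near the lowest density listed: the normalized ChIP density of peaks 6, 1 and 8 was 2.01, 2.05 and 2.06, and the lowest in the table was 2.00. Against the 402 other peaks of 235 to 610 bp, whose median fold was 5.53 and median ChIP reads 58, FOXP1 had a median fold of 5.78 and 40.5 ChIP reads. Input density at FOXP1, with a median of 0.480, compared with 0.531 in the 83 other chromosome 3 peaks of these widths and 0.609 in the 319 on other chromosomes. The copy number of the locus in these cells was not measured.

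Among genes with at least 8 peaks, likeness was judged by the number of peaks and then by the median normalized log2 ratio, over the 2 libraries. NEDD4L, a ubiquitin ligase gene, equalled FOXP1 with 10 peaks, and its median ratio differed by 0.38. TRAK1, a mitochondrial transport adaptor gene, and BCL2, the anti-apoptotic gene, had 9 each and differed by 0.32 and 0.48. SYK, a B cell receptor kinase gene, had 8 and the closest median ratio, 0.09 away. FAM49A and PMAIP1, the gene of the pro-apoptotic protein NOXA, also had 8. The 10 peaks of FOXP1 held 519 ChIP reads in sum, and those of the other 6 genes held 775 to 1737. The pooled fold of FOXP1, 5.35 (4.40 to 6.55), lay below the intervals of NEDD4L (6.81 to 9.03), TRAK1 (7.08 to 9.23), BCL2 (6.75 to 8.66) and PMAIP1 (6.68 to 9.53), and overlapped those of SYK (6.45 to 8.44) and FAM49A (5.89 to 8.48). These intervals cover counting error only, and FOXP1 also had the narrowest peaks, with a median of 413 bp against 494 to 991 bp. The pooled fold was 7.45 (7.31 to 7.59) over all 661 peaks. Over the 402 other peaks of 235 to 610 bp it was 5.99 (5.83 to 6.16), within the FOXP1 interval.

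**Figure D5:**
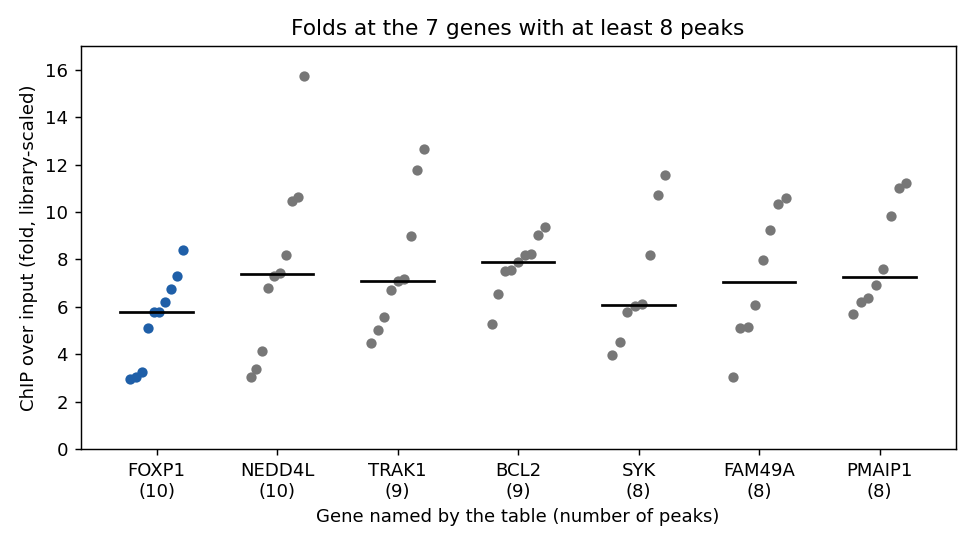
Fold of ChIP over input (y axis) of every peak at the 7 genes with at least 8 peaks (x axis, number of peaks in parentheses), points sorted by fold within a gene, with the median as a line. FOXP1 (blue) spans 2.96 to 8.40 with a median of 5.78, and the other medians lie between 6.08 and 7.89.

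FOXP1 peaks were also the most spread out of these. They covered 857.1 kb, while those of FAM49A covered 722.0 kb and those of the other 5 genes 150.7 to 273.5 kb. The span of FOXP1 includes the gap of 372.3 kb before peak 10, which no measurement here ties to the gene. The 7 peaks inside FOXP1 covered 288.0 kb. RefSeq gives FOXP1 a length of 629.3 kb, against a median of 46.7 kb over the 275 genes of the table, and only the entry IGH@, a whole immunoglobulin locus, was longer. Per 100 kb of gene, FOXP1 had 1.11 peaks inside it, NEDD4L 2.80, BCL2 3.56, SYK 5.16, TRAK1 1.41 and FAM49A 1.72. PMAIP1 had none inside its 4.31 kb. No other gene of the table had a peak within 1000000 bp of a FOXP1 peak. The nearest were a peak of SHQ1, an RNA assembly factor gene, 1372 kb away at higher coordinates with a fold of 7.69 (3.60 to 18.9), and one of TRAK1, 28329 kb away at lower coordinates.

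Genes linked to FOXP1 were looked up from lists written with earlier results of these data known, beside a background of 1.34% of protein-coding genes named by the table. Of 52 forkhead genes FOXP1 alone was named. Its peaks were chosen by that name, so this count was fixed to be at least 1. Among 8 genes known to be repressed by FOXP1 in B cells or B cell lymphoma, 1 was named: BIK, a pro-apoptotic gene marked Up, whose peak had 124 reads over 16, or 10.1-fold (6.01 to 18.3). None of 9 partners of FOXP1, such as the forkhead genes FOXP2 and FOXP4, was named. Among 19 ABC-type lymphoma genes, 5 were named: IRF4, SPIB, PIM1, BCL2 and TCF4. All 5 were marked Up, as were 83.3% of the 275 genes of the table. IRF4, a plasma cell and ABC transcription factor gene, had 4 with a median of 7.87, and TCF4 had 5 with a median of 4.204. SPIB, an Ets factor gene, had 1 peak of 11.6-fold, PIM1, a kinase gene, had 3 with a median of 10.1, and BCL2 had 9 with a median of 7.89. The median of 5.78 at FOXP1 was below those of IRF4, PIM1 and BCL2 and the 1 peak of SPIB, and above that of TCF4. Peak widths were not matched in this order, and the differences were not tested. The table lists signature genes only, so a gene it does not name cannot be called unbound.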

How the data were processed

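Per the submitters' processing notes, BWA, GATK and build hg19 were used, with roles not stated. The peak caller was not named in those notes, the labels or the headers. Foreign chromatin was added for normalization, per the labels' protocols. The authors deposited whole-number read counts per peak for the ChIP library and a library headed IC, taken as the input. Their deposited log2 ratio equalled log2 of ChIP plus 1 over input plus 1 within 1e-06 in 661 of 661 peaks, and their normalized log2 ratio added 0.39. The deposited signal is a normalized read density whose unit the headers do not give, and −log10 p-values are the authors'. Depth of the whole libraries is not in the table, whose peaks hold 71988 ChIP and 12661 input reads. Per the file headers, the table keeps only peaks related to signature genes. It has 662 lines, and the 1 repeated interval was counted once.

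Folds had no pseudocount. Reads amplified by PCR are not independent, so intervals are too narrow there. Distances were measured by the authors from the centre of a partner region at a stated, unsigned offset. The sign was taken that made the implied transcript ends coincide, which they did within 1 bp. RefSeq (GRCh38.p14) gave strand, length, gene order and promoter windows, and its coordinates were never mixed with hg19. Sequence under the peaks was not used here. All 275 gene names matched RefSeq symbols or older names. Genes most like FOXP1 were those with at least 8 peaks. A member of each of 2 lists is not reported here. Members and lists were chosen with earlier results of these data known. The fold script was tested on simulated data (Python 3.11.15, scipy 1.17.1). Alternatives were other scaling, pseudocount, confidence level, score limit, joining distance and order.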

Additional observations from a re-analysis of the deposited data

How the results depend on the processing

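Score limits reduced the number of FOXP1 peaks by construction, from 10 to 3 among the 331 peaks of highest score and to 0 among the 166 highest. The median fold was 3.27 over the 3 peaks outside the gene, in place of 5.78 over all 10 or over the 7 inside. A pseudocount of 1 gave folds of 2.88 to 7.86 and no library scaling 2.26 to 6.42, each inside the interval of its own peak. Leaving out the scaling divides every fold by the same 1.31, less than the reach of these wide intervals. Staying inside them is therefore no check on the folds. Intervals above 2 numbered 6 of 10 without scaling (482 of 661 over the table) and 6 at the 99% level (527 of 661). Joining gaps of 5000 bp gave 10 clusters, and gaps of 25000 or 50000 bp gave 7. Ranked by ChIP density, ChIP reads or net reads, 2 of the 3 peaks of highest fold stayed among the first 3. With 7 to 24 input reads a peak, the intervals of single folds were wide and those of every pair overlapped. No paired analysis was possible because each group is a single library.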
